A study of Mus musculus with 12 samples.

Results

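The genes described here are 47 genes of DNA replication and nucleotide synthesis: the factors that load and fire replication origins, the polymerases and their clamp, the enzymes that finish Okazaki fragments, the enzymes that supply deoxynucleotides, and factors that rebuild chromatin behind the fork. They were chosen by function and found by the gene symbol that the platform annotation gives to each probe. Of the 45281 probes on the array, 96 carry one of these symbols, and 82 of them were among the 20416 probes kept because their detection p-value was under 0.05 on at least 3 of the 12 arrays. This left 46 of the 47 genes measured, out of 10497 genes in all. The gene left out was Pola1, the catalytic subunit of the polymerase that starts new strands, whose only probe was detected on 1 array. Of the 46 measured genes, 42 were detected on all 12 arrays, while Orc1 was detected on 11, Prim1 on 10, and Gmnn and Pole2 on 8 each. Values below are log2 signals after background correction and quantile normalization, and a gene is read from the brightest of its kept probes.

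The samples were sorted thymocytes without CD4 and CD8 (double-negative, DN), a compartment that holds the youngest T cell precursors, from C57 BL/6 mice aged 2 to 3 months. The knockout group (3 arrays) was NHD13 transgenic and Lyl1 knockout, the NHD13 group (3 arrays) carried the transgene with Lyl1 intact, and the wild-type group had 6 arrays. The transgene encodes NUP98-HOXD13, a fusion of a nuclear pore protein with a homeobox transcription factor found in human leukaemia, and Lyl1 is a transcription factor of blood progenitors. By its title, the series is about self-renewal of thymocytes under this fusion, by way of Lmo2 and Lyl1. The promoter of the transgene and any pooling of animals are not given in the sources used here. No group lacked Lyl1 without the transgene. The labels do not state whether the arrays of a group held RNA from separate mice, so p-values measure the spread between these samples, which may be technical.

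Before S phase, the origin recognition complex, Cdc6 and Cdt1 place the Mcm2 to Mcm7 helicase on DNA, a step called licensing that geminin (Gmnn) blocks once replication has begun. The Cdc7-Dbf4 kinase, Cdc45, the GINS complex and Mcm10 then turn the loaded helicase into a moving fork, on which primase, the DNA polymerases, the Pcna clamp and the single-strand binding protein RPA work. Ribonucleotide reductase, thymidylate synthase, thymidine kinase and dUTPase supply the deoxynucleotides. Most of these genes are transcribed at the border of G1 and S phase under E2F transcription factors. In the thymus, DN cells divide in bursts, above all after the pre-T cell receptor has been assembled, and these genes are in common use as markers of proliferating cells.

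The promoters of 4 genes are shown, because E2F factors bind short sites close to start sites. Orc1, Mcm5 and Uhrf1 were picked from the genes described below that fell in NHD13, because their windows hold an E2F match. Mcm10 was added to them. Pold1 met the same rule for an E2F match but is not shown, and its match lies after the start, at bases 40 to 47. The windows shown therefore do not tell how common the motif is in the list. Each window runs from 250 bases before to 50 bases from the annotated start, 5′ to 3′ on the strand of the gene, from RefSeq on build GRCm38.p6. Capitals mark matches on either strand to the E2F motif (TTTCCCGC, TTTCGCGC, TTTGCCGC or TTTGGCGC) and to CCAAT, a motif common in promoters of dividing cells. The windows are chr4:108579204-108579503 (plus strand) for Orc1, the largest subunit of the origin recognition complex; chr8:75109259-75109558 (plus strand) for Mcm5, a helicase subunit; chr2:5012742-5013041 (minus strand) for Mcm10, a firing factor; and chr17:56304063-56304362 (plus strand), one of 2 annotated starts, for Uhrf1, which guides DNA methylation to copied strands.
Orc1: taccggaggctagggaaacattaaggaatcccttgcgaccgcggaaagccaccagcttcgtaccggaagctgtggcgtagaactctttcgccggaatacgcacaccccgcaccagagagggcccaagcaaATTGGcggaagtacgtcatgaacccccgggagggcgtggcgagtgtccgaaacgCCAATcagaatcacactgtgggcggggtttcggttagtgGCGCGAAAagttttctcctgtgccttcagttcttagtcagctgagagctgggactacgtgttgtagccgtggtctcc
Mcm5: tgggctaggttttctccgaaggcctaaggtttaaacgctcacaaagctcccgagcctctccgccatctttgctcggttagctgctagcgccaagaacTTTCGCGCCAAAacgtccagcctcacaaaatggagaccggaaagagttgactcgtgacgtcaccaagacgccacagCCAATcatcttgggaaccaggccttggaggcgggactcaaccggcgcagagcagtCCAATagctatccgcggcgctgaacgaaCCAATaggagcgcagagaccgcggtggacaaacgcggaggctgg
Mcm10: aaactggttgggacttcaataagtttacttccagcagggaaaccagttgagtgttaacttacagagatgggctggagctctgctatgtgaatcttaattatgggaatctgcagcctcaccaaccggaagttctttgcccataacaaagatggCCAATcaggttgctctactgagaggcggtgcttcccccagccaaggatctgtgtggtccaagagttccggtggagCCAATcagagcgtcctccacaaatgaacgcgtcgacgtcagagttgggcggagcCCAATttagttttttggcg
Uhrf1: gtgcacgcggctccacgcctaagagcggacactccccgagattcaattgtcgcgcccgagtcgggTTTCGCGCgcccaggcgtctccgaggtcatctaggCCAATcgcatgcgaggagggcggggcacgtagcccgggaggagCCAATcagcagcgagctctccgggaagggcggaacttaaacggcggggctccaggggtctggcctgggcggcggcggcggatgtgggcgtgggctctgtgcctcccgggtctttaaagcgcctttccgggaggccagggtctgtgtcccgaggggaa
The Orc1 window holds an E2F match 27 to 20 bases before the start, on the strand opposite to the gene. In Mcm5 matches on both strands overlap, 153 to 142 bases before the start, and the match in Uhrf1 lies 185 to 178 bases before it. The Uhrf1 start shown was taken for its E2F match, which the window of the other start lacks. Mcm10 holds no full E2F match in this window and has 3 CCAAT matches, as has Mcm5. Its window ends in TTTGGCG, all but the last letter of TTTGGCGC, so a match across the edge cannot be seen. Across the list, 15 of 47 promoter windows (31.9%) held an E2F match, against 744 of 32851 windows in the table (2.26%), and by gene these were 15 of the 40 genes with a window (37.5%) against 2.60% of 27025 genes. Prim2, Gmnn, Rfc2, Pole, Mcm4, Gins1 and Gins2 had no entry in the table. A match is a run of letters, not a bound site.

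**Figure D1:**
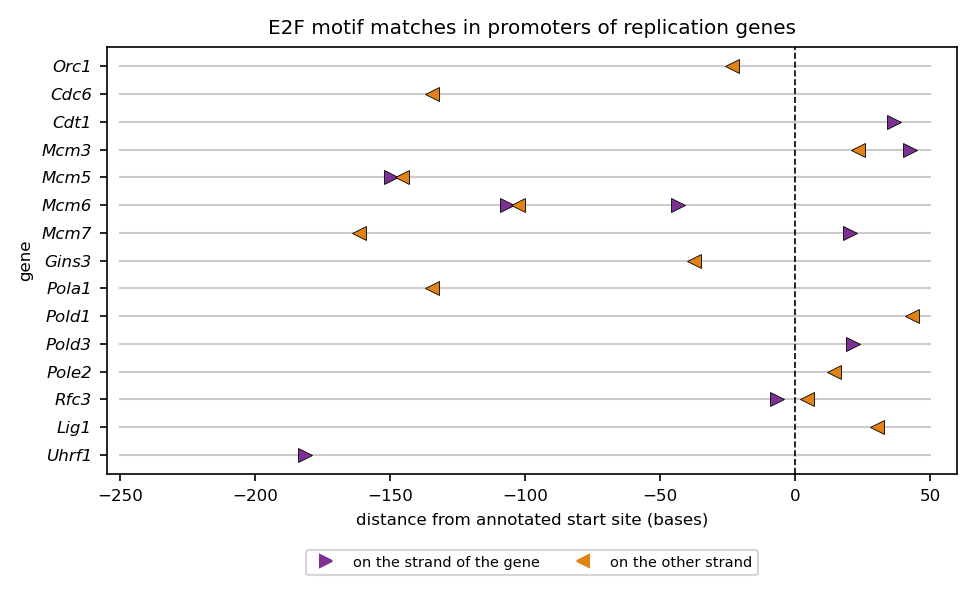
Positions of the 21 E2F motif matches in the promoter windows of 15 replication genes (rows). The x axis is the distance in bases from the annotated start site (dashed line), grey lines are the windows, and the direction and colour of a triangle give the strand of the match. First bases of the matches run from 185 bases before the start to base 40 after it, and 9 matches begin after the start.

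Facts on the arrays that touch these results are as follows. Lyl1 checked the labels, with log2 signals of 4.75, 4.73 and 4.68 in the knockout group, 11.2, 11.2 and 11.1 in NHD13, and 6.79 to 7.39 in wild type, and no knockout array detected it. Each array detected 17168 to 19464 probes, and the number of arrays limits the precision. Knockout replicate 1 stood apart: Mpo, a neutrophil granule enzyme, was at 14.3 on it and at 5.27 and 4.64 on knockout replicates 2 and 3, and the T cell gene Cd3e was at 9.58 on it and at 13.1 on both others. The spread of the probes that no array detected fell into 2 background classes, one made of the knockout arrays with wild-type replicates 1 to 3, the other of the NHD13 arrays with wild-type replicates 4 to 6. By Xist and Y-linked genes, knockout replicate 3 and wild-type replicates 1 to 3 were male and all others female.

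Setting NHD13 against wild type addresses the effect of the fusion. Nearly the whole replication list was lower in NHD13. Of the 46 measured genes, 39 fell, while 12.6% of all 10497 genes fell. A single gene, Prim2, rose, while 11.6% of all genes rose. The other 6 (Gmnn, Mcm7, Pole2, Rfc2, Rfc3 and Ung) did not pass the test of limma at an adjusted p under 0.05. The median log2 change was −0.97 over the list and −0.001 over all genes, and 45 of the 46 estimates were negative. For 32 genes every NHD13 array lay below every wild-type array, which was the case for 15.2% of all genes. Because the arrays read cells in bulk, fewer cells of a replicating type and less RNA per cell cannot be told apart here or in the other comparisons.

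The depth of the fall differed between the NHD13 arrays. The list's mean, set against its wild-type mean, was −0.44, −1.25 and −1.39 log2 on NHD13 replicates 1, 2 and 3, against −0.17 to 0.15 on the 6 wild-type arrays. It was −0.22, 0.21 and −0.27 on the 3 knockout arrays. All NHD13 arrays thus lay below all others, but replicate 1 lay nearer to the knockout arrays 1 and 3 than to the other NHD13 arrays. NHD13 replicate 1 was the highest of its group in 44 of 46 genes (95.7%), against 38.7% of all genes. It lay below the wild-type range in 32 genes (69.6%), while replicates 2 and 3 did so in 44 each (95.7%). Over all genes these shares were 26%, 29.7% and 30.7% on NHD13 replicates 1, 2 and 3.

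**Figure D2:**
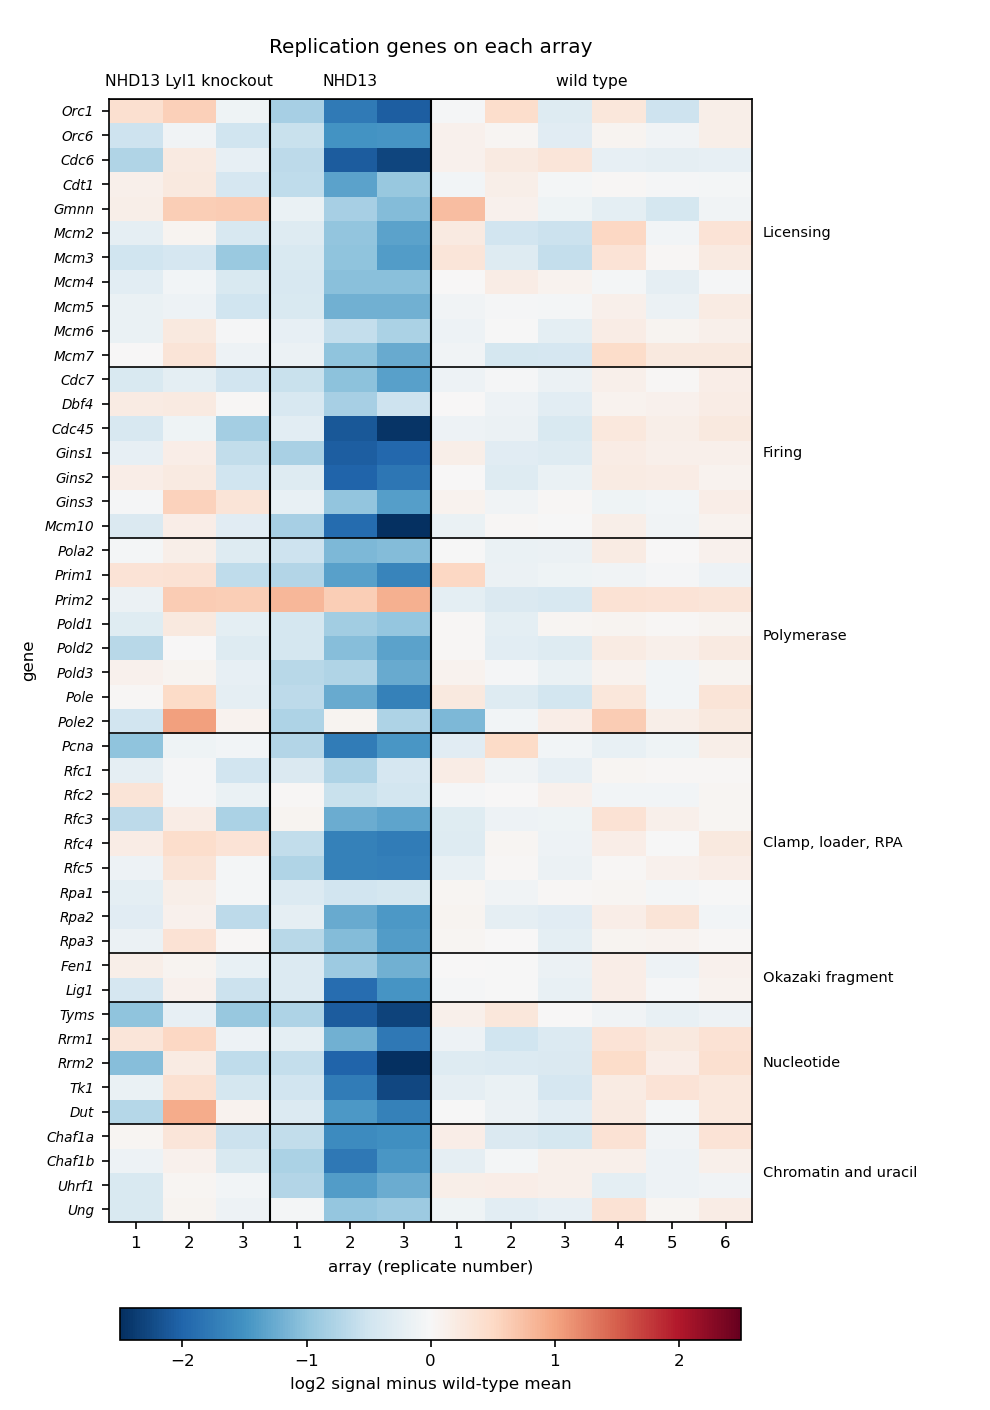
Log2 signal of each of the 46 measured genes (rows, ordered by role) on each of the 12 arrays (columns, by group and replicate number), minus the gene's wild-type mean, as colour from blue (below) to red (above). NHD13 replicates 2 and 3 are blue in nearly every row, with list means of −1.25 and −1.39, NHD13 replicate 1 is paler at −0.44, and Prim2 is the one row that is red in all 3 NHD13 columns.

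Of the 11 licensing genes, 9 fell in NHD13, and the other 2, Gmnn and Mcm7, did not pass the test. The group's median log2 change was −0.92. Orc1, the largest subunit of the origin recognition complex, was at 7.69, 7.90 and 7.19 in the knockout group, at 6.46, 5.52 and 5.23 in NHD13, and at 6.78 (lowest), 7.35 (median) and 7.73 (highest) in wild type. Every NHD13 array lay below every other array, while the knockout and wild-type arrays overlapped, and 2 of the 3 NHD13 arrays detected the gene. Orc1 was 2.94-fold lower in NHD13 than in wild type (log2 change −1.56 ± 0.29 SE, adjusted p = 0.0038), and the change was −0.70 (adjusted p = 0.0059) without background correction. Cdc6, which recruits the helicase to the origin, fell by 1.68 (adjusted p = 0.00493), and its partner Cdt1 by 0.97 (adjusted p = 0.00423). Orc6, another origin recognition subunit, fell by 1.17 (adjusted p = 0.00352).

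Of the 6 helicase subunits, Mcm2 to Mcm6 fell, by 0.53 (Mcm6) to 0.94 (Mcm5) on the log2 scale. Mcm5 was at 13.20, 13.24 and 12.87 in the knockout group, at 12.97, 12.15 and 12.15 in NHD13, and at 13.21, 13.32 and 13.56 (lowest, median, highest) in wild type. Its NHD13 arrays lay below all wild-type arrays, and the highest of them lay inside the knockout range. The fall in NHD13 was 1.91-fold (−0.94 ± 0.20, adjusted p = 0.00644). Mcm7, the remaining subunit, was at 11.73, 10.87 and 10.63 in NHD13, against 11.44, 11.96 and 12.35 (lowest, median, highest) in wild type. NHD13 replicate 1 lay inside the wild-type range and the other 2 NHD13 arrays below it, and the change of −0.81 ± 0.27 missed the threshold (adjusted p = 0.0545). Gmnn, the inhibitor of Cdt1, had a change of −0.70 ± 0.27 (adjusted p = 0.088), with 1 of 3 NHD13 and 4 of 6 wild-type arrays detecting it.

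All 7 firing genes fell in NHD13, with a median of −1.38. Mcm10, which helps the helicase to start unwinding, was at 11.37, 11.91 and 11.45 in the knockout group, at 10.92, 9.82 and 9.03 in NHD13, and at 11.57, 11.76 and 11.88 (lowest, median, highest) in wild type. The NHD13 arrays lay below all others, and they spread over a wider range than either other group. Mcm10 was 3.51-fold lower in NHD13 than in wild type (−1.81 ± 0.31, adjusted p = 0.00234). Cdc45, part of the active helicase, fell by 1.61 (adjusted p = 0.0131), and so did the GINS subunit Gins1 (adjusted p = 0.00243). Gins2 and Gins3 of the same complex fell by 1.38 and 0.85. The kinase Cdc7 fell by 0.97 (adjusted p = 0.00296) and its activator Dbf4 by 0.58 (adjusted p = 0.0194).

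Among the 8 measured polymerase and primase genes, 6 fell and Prim2 rose. Pold1, the catalytic subunit of polymerase delta, was at 12.07, 12.63 and 12.14 in the knockout group, at 11.94, 11.50 and 11.42 in NHD13, and at 12.14, 12.42 and 12.45 (lowest, median, highest) in wild type. The NHD13 arrays lay below all other arrays, and the fall was 1.69-fold (−0.76 ± 0.17, adjusted p = 0.00992). The delta subunits Pold2 and Pold3 fell by 0.94 and 0.90, Pole of polymerase epsilon by 1.21, and Pola2, the regulatory subunit of polymerase alpha, by 0.91. Pole2, an accessory subunit of polymerase epsilon near the detection limit, had a change of −0.49 ± 0.39 (adjusted p = 0.414), and 1 of 3 NHD13 and 5 of 6 wild-type arrays detected it.

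The 2 subunits of primase, which lays the RNA primers of new strands, were called in opposite directions. Prim1, the catalytic subunit, was at 6.99, 7.01 and 6.02 in the knockout group, at 5.93, 5.30 and 5.00 in NHD13, and at 6.51, 6.55 and 7.17 (lowest, median, highest) in wild type. It was 2.37-fold lower in NHD13 than in wild type (−1.25 ± 0.27, adjusted p = 0.00708), and 1 of the 3 NHD13 arrays detected it. Without background correction that change was −0.49 (adjusted p = 0.0159). Prim2, the regulatory subunit, was at 9.63, 10.41 and 10.38 in the knockout group, at 10.60, 10.39 and 10.66 in NHD13, and at 9.37, 9.80 and 10.14 (lowest, median, highest) in wild type. Its NHD13 arrays lay above all wild-type arrays, but wild-type replicates 1 to 3 (9.52, 9.41 and 9.37) and 4 to 6 (10.14, 10.11 and 10.08) also stood apart from each other. Prim2 was 1.72-fold higher in NHD13 than in wild type (0.78 ± 0.24, adjusted p = 0.0399), and its other kept probe was at 0.57 and not called (adjusted p = 0.0537). With wild-type replicates 4 to 6 as the only controls, matched to NHD13 in background class and sex, the change was 0.44 and not called (adjusted p = 0.214), and the call also ended without any one of the NHD13 arrays or of wild-type replicates 1 to 3 (adjusted p between 0.0706 and 0.138).

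Of the 9 genes for the clamp, its loader and RPA, 7 fell in NHD13, with a median of −0.97. Rfc4, a subunit of the loader that places the Pcna ring on DNA, was at 11.13, 11.38 and 11.28 in the knockout group, at 10.32, 9.25 and 9.20 in NHD13, and at 10.62, 10.96 and 11.18 (lowest, median, highest) in wild type. The NHD13 arrays lay below all others, while the knockout arrays lay at and above the upper end of the wild-type range. Rfc4 fell 2.54-fold in NHD13 (−1.35 ± 0.24, adjusted p = 0.00258), Rfc5 fell by 1.39 (adjusted p = 0.00128) and Pcna itself by 1.32 (adjusted p = 0.00611). The other loader subunits moved less. Rfc1, the largest of them, fell by 0.52 (adjusted p = 0.0334), whereas Rfc2, at −0.33 ± 0.17 (adjusted p = 0.183), and Rfc3, at −0.83 ± 0.31 (adjusted p = 0.0791), were not called. Whether the loader subunits differ from each other in their change was not tested.

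The 3 RPA subunits, which bind together to single-stranded DNA, all fell, but by 0.42 (Rpa1), 0.97 (Rpa2) and 1.06 (Rpa3) on the log2 scale. Rpa1, the largest subunit, was at 12.78, 13.18 and 12.98 in the knockout group, at 12.68, 12.55 and 12.58 in NHD13, and at 12.94, 13.04 and 13.08 (lowest, median, highest) in wild type. The NHD13 arrays lay below all others by a small margin, and Rpa1 was 1.34-fold lower in NHD13 than in wild type (−0.42 ± 0.13, adjusted p = 0.0381). Both Okazaki fragment genes fell. Fen1, which trims the displaced ends, was at 12.33, 12.26 and 11.99 in the knockout group, at 11.84, 11.27 and 10.99 in NHD13, and at 12.03, 12.18 and 12.35 (lowest, median, highest) in wild type. Again no NHD13 array reached the wild-type range, and the fall was 1.76-fold (−0.82 ± 0.19, adjusted p = 0.00934). Lig1, the ligase that seals the fragments, fell by 1.24 (adjusted p = 0.00931).

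All 5 nucleotide synthesis genes fell in NHD13, and their median of −1.50 was the lowest of the 7 role groups. Tyms, thymidylate synthase, was at 11.16, 11.96 and 11.22 in the knockout group, at 11.40, 10.08 and 9.85 in NHD13, and at 11.98, 12.12 and 12.45 (lowest, median, highest) in wild type. No knockout or NHD13 array reached the wild-type range, and NHD13 replicate 1 lay between the knockout arrays. Tyms was 3.30-fold lower in NHD13 than in wild type (−1.72 ± 0.31, adjusted p = 0.00278). Rrm2, the small subunit of ribonucleotide reductase that rises in S phase, was at 9.68, 10.96 and 10.11 in the knockout group, at 10.15, 8.75 and 8.01 in NHD13, and at 10.39, 10.67 and 11.21 (lowest, median, highest) in wild type. NHD13 replicates 2 and 3 lay far below every other array, and replicate 1 lay just below the wild-type range and inside that of the knockout group. Rrm2 fell 3.43-fold (−1.78 ± 0.42, adjusted p = 0.0116).

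Rrm1, the large subunit of the same reductase, was at 12.13, 12.34 and 11.71 in the knockout group, at 11.58, 10.62 and 10.05 in NHD13, and at 11.33, 11.89 and 12.19 (lowest, median, highest) in wild type. NHD13 replicate 1 lay inside the wild-type range and the other 2 below it, and Rrm1 fell 2.11-fold (−1.08 ± 0.32, adjusted p = 0.0302). Thymidine kinase (Tk1), the salvage enzyme of S phase, fell by 1.50 (adjusted p = 0.00992), and Dut, which removes dUTP, by 1.16 (adjusted p = 0.0342). Of the 4 chromatin and uracil genes, 3 fell. Uhrf1 was at 13.11, 13.53 and 13.42 in the knockout group, at 12.75, 12.08 and 12.25 in NHD13, and at 13.24, 13.51 and 13.66 (lowest, median, highest) in wild type. The NHD13 arrays lay below all others, and the fall was 2.18-fold (−1.12 ± 0.18, adjusted p = 0.00171), a call that ended when all kept Uhrf1 probes were averaged (adjusted p = 0.0964). Chaf1a and Chaf1b, subunits of the histone chaperone that loads new nucleosomes at the fork, fell by 1.25 and 1.35. Ung, which cuts uracil out of DNA, had a change of −0.64 ± 0.22 (adjusted p = 0.064), and its NHD13 arrays overlapped the wild-type range.

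**Figure D3:**
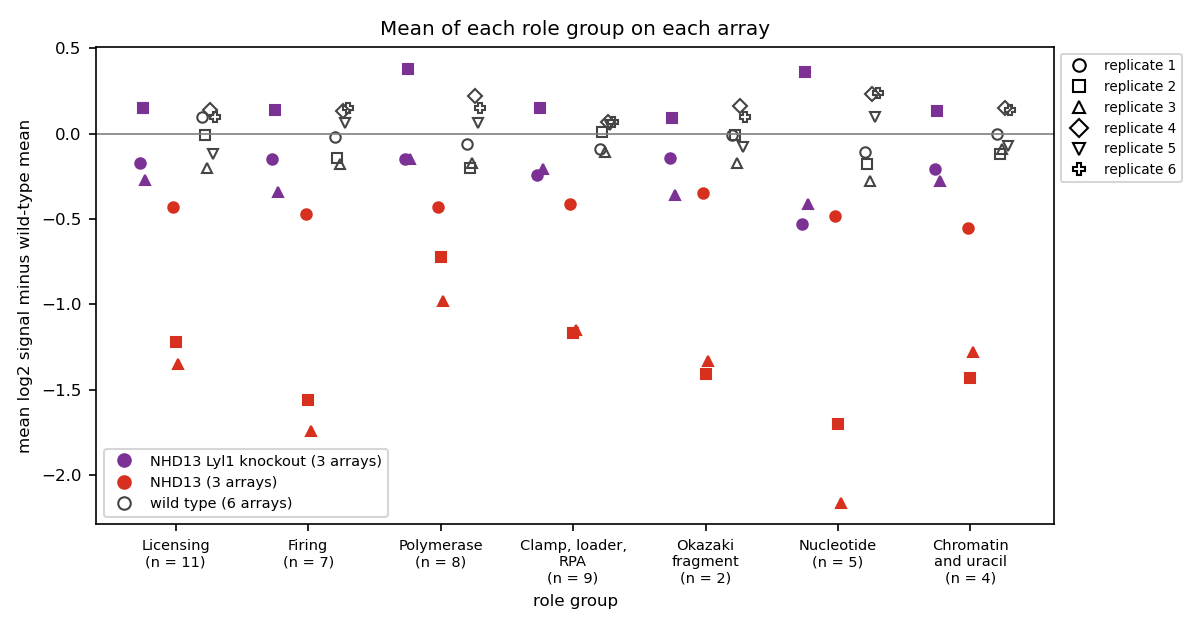
Mean log2 signal of each role group on each array, minus its wild-type mean (y axis), for the knockout group, NHD13 and wild type, with 1 point per array and a symbol per replicate number. In every role group NHD13 replicates 2 and 3 are the 2 lowest arrays, down to −2.16 for the nucleotide genes, while the wild-type arrays lie between −0.28 and 0.24.

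The count for NHD13 against wild type depended on the arrays fitted: 44 genes were called without replicate 1, all lower, 21 without replicate 2 and 19 without replicate 3, and the median stayed between −1.26 and −0.81 without any single array. Over all genes, the calls were likewise fewer, with 713 higher and 671 lower without replicate 2, and 708 and 665 without replicate 3, against 1216 and 1325 with all arrays (1156 and 1395 without replicate 1). The 19 calls that held without any single array were those of Orc1, Orc6, Cdc6, Cdt1, Mcm4, Mcm5, Cdc7, Gins1, Mcm10, Pola2, Prim1, Pold3, Pcna, Rfc4, Rfc5, Rpa3, Tyms, Chaf1b and Uhrf1. Each of the other 21, Prim2 included, was lost without NHD13 replicate 3 (adjusted p between 0.0513 and 0.210). Some were also lost without other arrays, Mcm6 and Rpa1 each in 8 of the 12 fits that left out an array. Within the background class and sex that NHD13 shares with wild-type replicates 4 to 6, 33 genes fell, 0 rose, and the median was −1.12. Over all genes 741 rose and 894 fell there. Against wild-type replicates 1 to 3 alone, 21 genes fell and 1 rose, with a median of −0.94. Over all genes 1261 rose and 1134 fell in that fit.

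Markers of cell stages and other cell types moved with the groups, and their part in the replication values was not tested. Of the 7 measured DN3 markers (9 listed), which mark the stage that assembles the pre-T cell receptor, 5 fell and 1 rose in NHD13, and their summed normalized signal was 4196 to 13467 in the knockout group, 4497 to 5376 in NHD13 and 7390 to 8932 in wild type. No NHD13 array detected Rag2. Of the 9 measured markers of the earlier DN1 and DN2 stages (10 listed), 5 rose and 0 fell in NHD13, with sums of 2822 to 21318 in the knockout group, 14366 to 25814 in NHD13 and 2740 to 4174 in wild type. Lyl1 is one of the 5. The NHD13 sums thus lay apart from wild type for both stages, while the knockout arrays spread widely.

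Of 10 measured myeloid markers (12 listed) 0 were called, and their sums were 73505, 331 and 293 on the 3 knockout arrays, 1659 to 31125 in NHD13 and 2524 to 13290 in wild type. The 8 measured T cell markers (10 listed), of which 0 were called in NHD13, summed to 14024, 71901 and 67663 on the knockout arrays, 54588 to 77137 in NHD13 and 73881 to 79532 in wild type. Knockout replicate 1 was thus poor in T cell markers and rich in myeloid ones, and its mean of the replication list (−0.22) lay close to that of knockout replicate 3 (−0.27). The 3 measured erythroid markers (7 listed) summed to 2762 to 3166 in the knockout group, 6664 to 12044 in NHD13 and 2661 to 4717 in wild type, and 1 of them rose in NHD13. No wild-type array detected Klf1 of this list. The NHD13 arrays thus lay above wild type for erythroid markers and across it for myeloid ones.

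Markers of later or other lymphocytes were few. Of 4 measured CD4+CD8+ markers (6 listed), 3 rose in NHD13, with sums of 5213 to 6462 in the knockout group, 9954 to 13891 in NHD13 and 3424 to 6273 in wild type. Gamma delta T cell markers (4 of 7 measured, 2 rose) summed to 8206 to 11715 in the knockout group, 17132 to 21381 in NHD13 and 9419 to 11614 in wild type. The 3 measured NK cell markers (6 listed), of which 1 rose and 2 fell, summed to 1227 to 4855 in the knockout group, 9936 to 12174 in NHD13 and 3616 to 5468 in wild type. Every NHD13 sum lay above every wild-type sum for these 3 lists, but for NK cells the sum and most of the list went opposite ways. The mean log2 signal of the NK markers, set against its wild-type mean, was −1.30, −0.90 and −1.14 on NHD13 replicates 1, 2 and 3. For B cells (3 of 6 measured, 0 called) the sums were 721 to 1072 in the knockout group, 1729 to 1968 in NHD13 and 1008 to 2813 in wild type, and no knockout array detected Ms4a1.

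Setting the knockout group against NHD13 addresses the loss of Lyl1 while the fusion is present. Replication genes were higher in the knockout group. Of the 46 genes, 25 rose, while 13.0% of all genes rose, and 0 fell, while 9.22% of all genes fell. At an unadjusted p under 0.05, 38 genes were higher and 0 lower in the limma fit, against 2211 higher and 1608 lower of all 10497 genes. The median log2 change was 0.94, against 0.064 over all genes, and 45 of 46 estimates were positive. Every knockout array lay above every NHD13 array for 27 genes, which held for 21.7% of all genes. This comparison uses the same NHD13 arrays as the first, so an array that was low there raises the difference here.

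Orc1 was 3.62-fold higher in the knockout group than in NHD13 (1.86 ± 0.34, adjusted p = 0.00343), with the knockout arrays between 7.19 and 7.90 and the NHD13 arrays between 5.23 and 6.46. Rfc4 was 3.19-fold higher in the knockout group than in NHD13 (1.67 ± 0.27, adjusted p = 0.00201), and Mcm10 was 3.14-fold higher (1.65 ± 0.36, adjusted p = 0.00862). The SE comes from a spread shared by all groups, while the SD of Mcm10 was 0.29 in the knockout group, 0.95 in NHD13 and 0.11 in wild type. With only the knockout and NHD13 groups in the limma fit, Mcm10 was not called (adjusted p = 0.0752). For all 3 genes the knockout and NHD13 arrays did not overlap. Without background correction the Orc1 change was 0.89 and still called (adjusted p = 0.00417), and 2 of the 3 NHD13 arrays detected the gene. Of the licensing genes 5 of 11 rose: Orc1, Orc6 (0.81), Cdc6 (1.43), Cdt1 (0.96) and Gmnn (1.17). Of the 6 helicase subunits 0 were called by their brightest probes, with changes from 0.31 (Mcm3, adjusted p = 0.515) to 0.87 (Mcm7, adjusted p = 0.0683). Mcm5, at 0.68 ± 0.23 (adjusted p = 0.0507), and Mcm4, at 0.59 ± 0.20 (adjusted p = 0.0528), missed the threshold narrowly. A further Mcm6 probe was called higher without overlap, at 1.09 (adjusted p = 0.0132), while its brightest probe was at 0.54 (adjusted p = 0.0723) and its other 2 were not called. Gmnn was at 5.85, 6.32 and 6.34 in the knockout group and at 5.53, 4.87 and 4.62 in NHD13, and its knockout arrays lay above its NHD13 arrays. Its change was 0.45 without background correction (adjusted p = 0.0332), and the call was lost with the background class as a block (adjusted p = 0.276).

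Of the firing genes 5 of 7 rose, the 3 GINS subunits of the list among them (Gins1 by 1.40, Gins2 by 1.33 and Gins3 by 1.14), with Mcm10 and Dbf4 (0.73). Cdc45, at 1.16 ± 0.45, was not called (adjusted p = 0.0901). Of the polymerase and primase genes 5 of 8 rose, from 0.66 (Pold1, adjusted p = 0.0357) to 1.30 (Pole, adjusted p = 0.0116), with Pola2, Prim1 and Pold3 between them. Prim2 had the only negative estimate of the list, −0.41 ± 0.28 (adjusted p = 0.329), and its knockout and NHD13 arrays overlapped. Of the clamp, loader and RPA genes 3 of 9 rose, Rfc4, Rfc5 (1.44, adjusted p = 0.00263) and Rpa3 (1.14, adjusted p = 0.00326). Pcna, at 0.92 ± 0.32 (adjusted p = 0.0571), and Rpa1, at 0.38 ± 0.15 (adjusted p = 0.0934), did not pass.

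Fen1 rose by 0.83 (adjusted p = 0.0180), and Lig1, at 0.95 ± 0.32, was not called by its brightest probe (adjusted p = 0.0549). Of the 5 nucleotide genes 3 rose: Tk1 by 1.43 (adjusted p = 0.0245), Rrm1 by 1.31 (adjusted p = 0.0244) and Dut by 1.26 (adjusted p = 0.0435). Tyms, at 1.00 ± 0.35 (adjusted p = 0.0631), and Rrm2, at 1.27 ± 0.49 (adjusted p = 0.0826), overlapped between the groups and were not called by their brightest probes. Both further Rrm2 probes were called higher without overlap, at 2.09 (adjusted p = 0.0116) and 0.88 (adjusted p = 0.0330), as was 1 of 4 further Tyms probes, at 0.98 (adjusted p = 0.0178). Of the 4 chromatin and uracil genes 3 rose, namely Chaf1a (1.19), Chaf1b (1.21) and Uhrf1 (0.99, adjusted p = 0.00758). With all kept probes of each gene averaged, 28 genes were called, all higher, and over all genes 1400 were higher and 1035 lower. Lig1 (adjusted p = 0.0153) and Rpa2 (adjusted p = 0.0105) then gained a call. Uhrf1 (adjusted p = 0.183) and Cdc6 (adjusted p = 0.0541) lost theirs. Knockout replicate 2 was the highest of its group in 41 of 46 genes (89.1%), against 32.6% of all genes. It lay above the wild-type range in 18 genes (39.1%), against 25.8% of all genes.

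**Figure D4:**
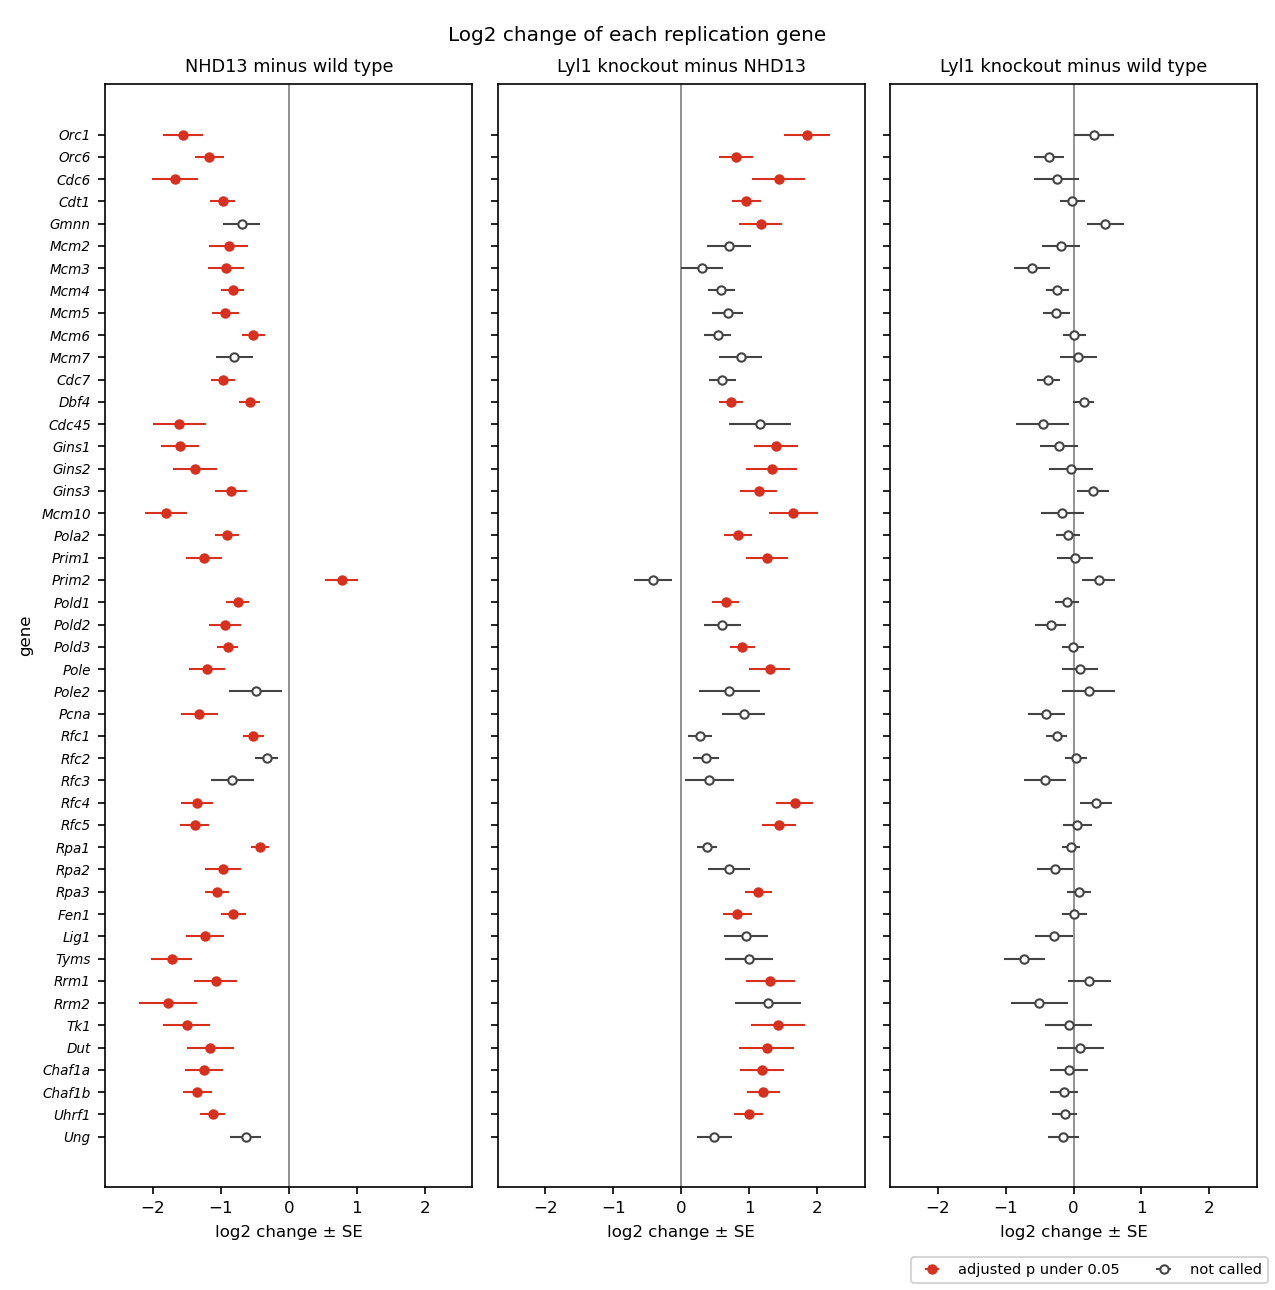
Log2 change of each of the 46 genes (rows) with its SE in the 3 comparisons (panels), filled red where limma's adjusted p was under 0.05 and open otherwise. In the first panel 39 genes are filled left of 0 and Prim2 right of it, in the second 25 are filled right of 0, and in the third none is filled.

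Beside these changes, 3 of 7 DN3 markers rose and 0 fell in the knockout group against NHD13, and 3 of 9 early DN1 and DN2 markers fell and 0 rose, Lyl1 included. Also lower in the knockout group were 2 of 4 gamma delta markers and 1 marker each of the CD4+CD8+, NK, erythroid and B cell lists, with 0 higher in these lists, and 0 of the T cell and myeloid markers were called. Their part in the result was not tested.

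All knockout arrays are in one background class and all NHD13 arrays in the other, so this difference has no value within a class. Among the wild-type arrays class and sex coincide, so a block estimated from them cannot tell the 2 apart. With the class as a block, estimated from the wild-type arrays, 15 genes were called and the median was 1.00. The count was 4 (Orc1, Rfc4, Rfc5 and Rpa3) when only the 2 groups were fitted, 39 without NHD13 replicate 1, 11 and 12 without NHD13 replicates 3 and 2, 13 without knockout replicate 2, and 23 without knockout replicate 1, with every call in the same direction. Over all genes the counts, 1361 higher and 968 lower with all arrays, were 901 and 598 with the background class as a block, 552 and 427 with only the 2 groups, 722 and 529 without NHD13 replicate 2, 796 and 573 without NHD13 replicate 3, and 870 and 649 without knockout replicate 2. They were 1471 and 1027 without NHD13 replicate 1, and 1326 and 945 without knockout replicate 1. The 10 calls that held without any single array were those of Orc1, Cdt1, Gins1, Mcm10, Pold3, Rfc4, Rfc5, Rpa3, Chaf1b and Uhrf1, and each of the other 15 was lost without NHD13 replicate 2 or 3. Some were also lost without other arrays, Dut in 10 and Orc6 in 8 of the 12 fits that left out an array.

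Setting the knockout group against wild type changes the fusion and Lyl1 together, and their parts cannot be told apart. Of the 46 genes, 0 were called in the limma fit, while 8.30% of all genes were called in either direction. At an unadjusted p under 0.05 there were 2 genes, both lower in the knockout group: Tyms at −0.72 ± 0.31 (adjusted p = 0.162), with every knockout array below every wild-type array, and the helicase subunit Mcm3 at −0.62 ± 0.27 (adjusted p = 0.170). Of all 10497 genes, 2469 were under that p, 1469 of them higher and 1000 lower. The changes ran from −0.72 (Tyms) to 0.47 (Gmnn), with a median of −0.07 over the list and 0.084 over all genes. Of the estimates, 29 were negative and 17 positive.

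This does not show equal levels. The 95% interval of the change lay within 1 log2 unit of 0 in either direction for 39 of the 46 genes. Mcm10 had a change of −0.16 with an interval from −0.84 to 0.51, and Orc1 of 0.30 with an interval from −0.34 to 0.94. The widest margins toward lower levels were those of Rrm2 (−0.50, interval −1.42 to 0.41) and Tyms (interval −1.39 to −0.06). Knockout replicates 1 and 3 lay below the wild-type range in 20 and 24 of the 46 genes (43.5% and 52.2%), whereas replicate 2 did so in 2 (4.35%). Over all genes these shares were 26%, 17.9% and 16.7% on knockout replicates 1, 3 and 2. The median was −0.25 without knockout replicate 2. Without knockout replicate 1 the count of called genes was also 0, and against wild-type replicates 1 to 3, which share the class of the knockout arrays, it was 0 as well. One gene was called without NHD13 replicate 1 (Tyms, adjusted p = 0.0402), 1 with array weights (Mcm3, adjusted p = 0.0416) and 1 with the class as a block (Prim2, higher, adjusted p = 0.0390).

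**Figure D5:**
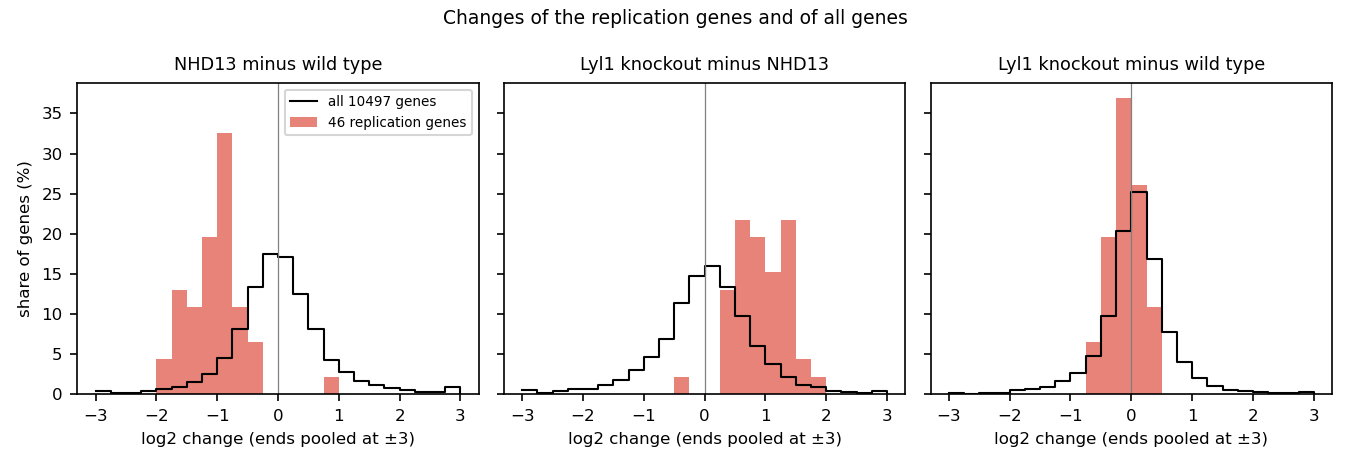
Share of genes (y axis, percent) by log2 change in bins of 0.25 (x axis, the ends pooled at ±3), for the 46 replication genes (filled) and all 10497 measured genes (line), in the 3 comparisons. The medians of the replication genes are −0.97, 0.94 and −0.07, against −0.001, 0.064 and 0.084 over all genes.

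Genes of the same processes outside the list gave smaller counts. Of 26 other measured genes of forks and origins (29 listed), 12 fell and 0 rose in NHD13 against wild type, with a median of −0.68. They include the checkpoint adaptor Clspn (−1.66 ± 0.24, adjusted p = 0.000845) and Wdhd1, which ties the helicase to polymerase alpha (−1.09 ± 0.15, adjusted p = 0.000754). In the knockout group against NHD13, 12 rose and 1 (the origin recognition subunit Orc5, named after its values were seen) fell, with a median of 0.66. Pole3, a small subunit of polymerase epsilon (1.18 ± 0.22, adjusted p = 0.00352), and the fork protection factor Timeless (1.05 ± 0.23, adjusted p = 0.00876) had the smallest adjusted p, and of 3 further Timeless probes 1 was called higher and 2 were not called. Against wild type, 1 of the 26 was called in the knockout group. It was topoisomerase Top1, which fell by 0.80 (adjusted p = 0.0307), a call that its other 2 kept probes did not share and that was lost without knockout replicate 1 (adjusted p = 0.0980) or 3 (adjusted p = 0.112) or any one of wild-type replicates 3, 5 and 6 (adjusted p between 0.0516 and 0.0521). Wdhd1 was at −0.42 (adjusted p = 0.105).

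Of 29 other measured nucleotide synthesis genes (31 listed), 12 fell and 0 rose in NHD13 against wild type, with a median of −0.65. Shmt1, which supplies the one-carbon units for thymidylate, was at 10.56, 10.85 and 10.81 in the knockout group, at 9.80, 9.08 and 8.78 in NHD13, and at 10.75, 10.83 and 10.95 (lowest, median, highest) in wild type. Its NHD13 arrays lay below all others. It was lower in NHD13 than in wild type by 1.61 (log2 change −1.61 ± 0.20, adjusted p = 0.000319) and higher in the knockout group than in NHD13 (1.52 ± 0.23, adjusted p = 0.0014), where its other kept probe was at 1.08 and not called (adjusted p = 0.0546). CTP synthase (Ctps) fell by 1.17 in NHD13 (adjusted p = 0.00124), and Dctpp1, which breaks down dCTP, rose by 1.41 in the knockout group against NHD13 (adjusted p = 0.00336). In that comparison 10 rose and 1, Adss, fell, with a median of 0.52. Against wild type 1 of 29 was called in the knockout group, adenylosuccinate synthase (Adss), which fell by 2.29 by its brighter probe (adjusted p = 0.00476). Its other kept probe was at 0.48 and not called (adjusted p = 0.239). Umps, which makes UMP, was at −0.91 (adjusted p = 0.149).

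Regulators of the G1 to S step moved less evenly. Of 19 genes of E2F, RB and G1/S control, 9 fell and 1 rose in NHD13 against wild type, with a median of −0.60. E2f1, an activating member of its family, was at 10.93, 11.04 and 10.77 in the knockout group, at 10.37, 9.08 and 9.55 in NHD13, and at 10.86, 11 and 11.09 (lowest, median, highest) in wild type. The NHD13 arrays lay below all others. E2f1 fell by 1.31 in NHD13 against wild type (adjusted p = 0.00245) and rose by 1.25 in the knockout group against NHD13 (adjusted p = 0.00709). The growth regulator Myc fell by 2.15 in NHD13 (−2.15 ± 0.30, adjusted p = 0.000759). The gene that rose was Tfdp2, a DNA-binding partner of E2F proteins, by 0.98 (adjusted p = 0.00453), named after its values were seen, and 5 further Tfdp2 probes were not called.

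In the knockout group against NHD13, 5 of the 19 rose and 2 (Tfdp2 and the RB relative Rbl2) fell, and E2f5, a repressive E2F, rose by 1.07 (adjusted p = 0.00506). Against wild type, E2f5 was higher by 0.67 in the knockout group (0.67 ± 0.18, adjusted p = 0.0377), a call lost without knockout replicate 1 (adjusted p = 0.127) or 3 (adjusted p = 0.121) or any one of wild-type replicates 1, 4, 5 and 6 or NHD13 replicate 2 (adjusted p between 0.0508 and 0.0737). Cyclin E2 (Ccne2), which drives entry into S phase, fell by 2.09 there (adjusted p = 0.0184), and this call ended without knockout replicate 1 (adjusted p = 0.0774).

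Mitosis markers moved with the replication genes. All 8 measured (12 listed) fell in NHD13 against wild type, with a median of −1.58. The spindle kinase Aurka fell by 1.64 (adjusted p = 0.00862) and the survivin gene Birc5 by 1.52 (adjusted p = 0.00916). Without NHD13 replicate 3 neither passed (adjusted p of 0.0524 for Aurka and 0.0571 for Birc5), nor did Birc5 without replicate 2 (adjusted p = 0.0535). Against NHD13, 6 of 8 rose in the knockout group and 0 fell, with a median of 1.41. Aurkb, a kinase of chromosome separation, rose by 2.04 (adjusted p = 0.0137), and Aurka by 1.75 (adjusted p = 0.0131), a call lost without NHD13 replicate 2 or 3 or knockout replicate 2 (adjusted p between 0.0503 and 0.0539). Against wild type 0 of 8 were called in the knockout group, with Bub1b at −0.38 (adjusted p = 0.499) and Kif11 at 0.29 (adjusted p = 0.641).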

How the data were processed

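The authors deposited bead-summarised intensity values, 1 colour and 1 column per array, each beside a detection p-value against negative controls, per the file headers. BeadStudio and limma are named, without role, per the submitters' processing notes, and whether background had been subtracted is unknown from these sources. A second deposited table holds the authors' log2 values, with a median of 4.86 on every array, which correlates at 0.9998 with the values used here and served as an alternative.

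Intensities were corrected from the detection p-values and quantile-normalized with neqc (limma 3.58.1, R 4.3.3, offset 16). By GEO's platform annotation, 34885 probes had a single gene symbol, 10378 had none and 18 had several, and 16916 of those with one were kept. One lmFit and eBayes model took in the 12 arrays, with group means and a spread per probe shared by all groups. Calls were made at a Benjamini-Hochberg adjusted p under 0.05 across 20416 probes. The fit was tested on simulated data. Changes carry their SE, levels are log2 signals.

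The genes, lists and tests were chosen with earlier results of these data known. By rule, the text singles out the brightest measured gene of each role group, the 3 called genes with the largest change in each direction, and genes whose call differs from most of the list, and the other lists name the 2 genes with the smallest adjusted p in each comparison. Prim1, Orc5, Tfdp2 and Rbl2 fall outside that rule. Of 20 genes with further kept probes, 12 (NHD13 against wild type), 10 (knockout against NHD13) and 0 (knockout against wild type) had a probe with another call, and 0 had opposite calls. Replicate numbers did not pair the samples (correlation of deviations from −0.16 to 0.23). Protein and probe sequences were not used here.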

Additional observations from a re-analysis of the deposited data

Results flagged for a closer look

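In 3 of the 46 genes, 1 of the 6 wild-type arrays lay far from the other 5 by Dixon's criterion, which chance meets in about 1 of 20 groups. For Prim1, wild-type replicate 1 was at 7.17, above the other wild-type arrays. For Pold1, wild-type replicate 2 was at 12.14, and for Rpa3, wild-type replicate 3 was at 11.22, each below the other wild-type arrays. All 3 genes were lower in NHD13 than in wild type without those arrays too, at changes of −1.14 (Prim1 without wild-type replicate 1), −0.80 (Pold1 without wild-type replicate 2) and −1.11 (Rpa3 without wild-type replicate 3).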

How the results depend on the processing

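Under 14 other settings and the leaving out of each of the 12 arrays, no named change reversed in a call. For the 168 named results (46 genes in 3 comparisons and 30 values of other genes, the 30 added after seeing the data), 3823 of 4244 values kept their side of the threshold, 327 lost a call and 94 gained one, and some values that were not called turned sign. The number of genes called in NHD13 against wild type was 40, and it was 15 (14 lower, 1 higher) with median scaling, 22 against wild-type replicates 1 to 3 alone, and 19 to 44 without single arrays. For the knockout group against NHD13 it was 25, and it was 15 with the background class as a block, 39 with array weights, 4 with only the 2 groups fitted, and 11 to 39 without single arrays. Calls over all genes also rose with array weights in that comparison, to 1877 higher and 1329 lower from 1361 and 968. For the knockout group against wild type it was 0, and it was 1 with the class as a block, 1 with array weights, and 0 to 1 without single arrays.

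Median scaling moved the median of all genes to 0.285 in NHD13 against wild type and to 0.333 in the knockout group against wild type. The list's medians were then −0.67 and 0.31, which is −0.96 and −0.02 relative to all genes, so the sign of the list median for the knockout group against wild type flips before that shift is taken off. Over all genes the split was then 2029 higher and 449 lower in NHD13 (1216 and 1325 otherwise), and 1397 higher and 242 lower in the knockout group against wild type (471 and 400 otherwise). With the replicate number as a block, only wild-type replicates 1 to 3 were kept as controls. In that fit 22 genes were called in NHD13 against wild type and 20 in the knockout group against NHD13. For the knockout group against wild type 0 were called. The same controls without the block also gave 22 calls in NHD13 against wild type, with the same list median of −0.94. Over all genes, the fit with the block gave 989 higher and 859 lower in NHD13 against wild type. It gave 947 higher and 690 lower in the knockout group against NHD13. The replicate numbers do not pair the samples. The causes of these shifts were not tested. The number of arrays and, for Orc1, Prim1, Gmnn and Pole2, signals near background limit these comparisons.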

Other observations

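Genes that copy chromatin gave mixed values. Of 6 measured (10 listed), 2 fell in NHD13 against wild type: Dnmt1, the maintenance DNA methyltransferase, by 0.91 (adjusted p = 0.00413), and Nasp, a histone chaperone, by 1.00 (adjusted p = 0.00517). In the knockout group against NHD13, Dnmt1 rose by 0.75 (adjusted p = 0.0219), a call lost without NHD13 replicate 2 or 3 or knockout replicate 2 (adjusted p between 0.0730 and 0.0885). The histone-binding protein gene Rbbp7 was lower by its brightest probe in the knockout group than in NHD13 (−1.37 ± 0.37, adjusted p = 0.0212) and than in wild type (−1.87 ± 0.32, adjusted p = 0.00483). The first of these calls ended without NHD13 replicate 1 or 2 or knockout replicate 1 (adjusted p between 0.0562 and 0.0613). One further Rbbp7 probe was called the other way in the knockout group against NHD13, at 0.92 (adjusted p = 0.0274). Nasp fell by 0.72 in the knockout group against wild type (adjusted p = 0.0409), and the call was lost in 9 of 12 fits that left out an array (adjusted p up to 0.140).

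Other promoter letters were nearer to the background than the E2F motif. CCAAT stood in 25 of the 47 windows (53.2%), against 37.4% of all windows, and the CHR motif of cell cycle genes (TTTGAA or TTCGAA) in 10 (21.3%), against 19.2%. Of the 14 measured genes with an E2F match, 11 fell in NHD13 against wild type (median −0.91), and of the 25 with a window and no match 24 fell (median −1.16). In the knockout group against NHD13, 7 of the 14 with a match rose (median 0.89), as did 14 of the 25 without one (median 1.00).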
